A study of Mus musculus with 8 samples.

Results

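The ribosome and the factors that feed it were followed in kidney tissue from MRL-lpr mice, which develop lupus and carry a defective Fas gene. One group drank 200 mM propionate, a fatty acid that intestinal microbes release from fibre, over 6 weeks, and the other served as controls. Both groups were 12 weeks old, and each had 4 RNA-seq libraries of whole kidney. What the controls drank, the sex of the mice and whether each library came from a separate mouse are not given in the sources. The p-values therefore measure only the spread between these libraries.

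The members are the protein-coding genes in the table whose symbol starts with Rps, Rpl or Rplp and a number, Rpsa, and those starting with Eif or Eef and a number, without the kinases named Rps6k. The rule found 62 of the 1931 genes in the table. They comprise 48 ribosomal proteins, of which 3 form the stalk, 20 belong to the small subunit and 25 to the large subunit. Another 14 are translation factors and their regulators, 11 of initiation and 3 of elongation. The rule takes 160 protein-coding genes in the GENCODE M21 annotation of mouse, so 98 (44 ribosomal proteins and 54 factors) are not analysed here. The table holds only genes with an unadjusted p of up to 0.05 in the authors' own test of these same libraries. Each of the 62 had therefore already differed in one direction or the other, and none of the counts below speaks for the whole ribosome.

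A ribosome is built from a small subunit, which reads the mRNA, and a large subunit, which joins amino acids. Initiation factors bring the small subunit to the cap and to the start codon. Elongation factors then deliver tRNAs and move the ribosome along, and the stalk of the large subunit is where elongation factors dock. Many mRNAs of ribosomal proteins begin with a run of pyrimidines, the 5' terminal oligopyrimidine tract, through which the kinase mTORC1 and the RNA-binding protein LARP1 regulate them together. The kidney is rich in proximal tubule cells with a high protein turnover.

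The start of the transcript is shown for 10 members, since many ribosomal protein mRNAs begin with a pyrimidine run and the selection rule did not use it. The ribosomal proteins shown lean towards long runs and do not stand for the rest. Each line gives 15 bases before and 15 bases from the start site annotated by RefSeq on GRCm38.p6, 5' to 3' on the gene's strand, with the longest run of C and T in capitals. The first 6 are ribosomal proteins, the other 4 are factors, and the last pair are the members with lower levels in the propionate group.
Rplp2: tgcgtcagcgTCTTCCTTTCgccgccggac
Rps6: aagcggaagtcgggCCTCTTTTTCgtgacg
Rps9: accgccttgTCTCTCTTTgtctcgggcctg
Rpl14: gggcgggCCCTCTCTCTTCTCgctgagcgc
Rpl28: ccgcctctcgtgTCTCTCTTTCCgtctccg
Rplp0: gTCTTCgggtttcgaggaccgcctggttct
Eif3f: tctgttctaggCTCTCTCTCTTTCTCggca
Eef2: tataaaaggCCgggcgttgacgtcagcggt
Eif4g3: aaagCTCCgagcggccgtcctgccggactg
Eif2ak2: CCCagagcagtgtgggaaggcggagtccgc
On GRCm38.p6 the ribosomal protein windows lie, with the strand in brackets, as follows: Rplp2 at chr7:141447636-141447665 (plus), Rps6 at chr4:86857353-86857382 (minus), Rps9 at chr7:3704026-3704055 (plus), Rpl14 at chr9:120571502-120571531 (plus), Rpl28 at chr7:4792950-4792979 (plus) and Rplp0 at chr5:115559452-115559481 (plus). Those of the factors are Eif3f at chr7:108934400-108934429 (plus), Eef2 at chr10:81176616-81176645 (plus), Eif4g3 at chr4:137993440-137993469 (plus) and Eif2ak2 at chr17:78882558-78882587 (minus). RefSeq promoters were matched by symbol for 34 ribosomal proteins and 11 factors. A run of at least 7 bases of C or T on the gene's strand stood in this 30-base window in 15 of the 34 ribosomal proteins (44.1%) and in 1 of the 11 factors (9.1%), Eif3f. Of 27025 genes with a promoter, 21.3% held such a run, and of 1409 listed genes 20.7% did. Where a gene has several annotated starts, the one with the longest run was taken. The longest run was 14 bases in Rpl14 and 15 in Eif3f, against 4 in Eif4g3 and 3 in Eif2ak2. The median longest run was 5.5 bases in the ribosomal proteins, 3.0 in the factors and 5.0 over all genes with a promoter. A run was counted anywhere in the window, also before the start site, so it need not be a tract at the 5' end. A window without a run, as in Rplp0, says only that these letters are not at the annotated start.

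All 48 listed ribosomal proteins had higher levels with propionate, by a small amount. Their log2 fold changes ranged from 0.08 to 0.28 with a median of 0.16, a ratio of 1.12, and the median SE of one gene was 0.06. The 14 factors ranged from -0.31 to 0.18 with a median of 0.13, and 12 were higher and 2 lower. The median over all 1792 genes tested was 0.11, and 53.2% of them were higher and 46.8% lower. Set against that median, the ribosomal proteins stood 0.05 above it and the factors 0.01 above it on the log2 scale. The smallest absolute log2 fold change of any gene tested was 0.06, since the table was selected for a difference. That median thus lies among the smallest positive values, and a distance above it does not show an excess. The 448 genes with the highest scaled counts hold 45 of the ribosomal proteins. The 394 genes there that are no members had a median of 0.13, with 61.9% higher.

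By edgeR's quasi-likelihood test, adjusted over the genes tested, 27 of the 48 ribosomal proteins passed an adjusted p of 0.05, all of them higher. Of all genes tested, 67.9% passed, 25.9% as higher and 41.9% as lower. Of the 14 factors 3 passed, Eif4a3 as higher and Eif4g3 and Eif2ak2 as lower. Adjusted over the 16064 genes behind the authors' own adjustment, 0 members passed by edgeR, where 0.335% of the genes tested did. At an unadjusted p of 0.05, 33 ribosomal proteins and 8 factors passed by edgeR, where 81.6% of the genes tested did, 36.2% as higher. The authors' deposited table gives 8.13% of its genes an adjusted p under 0.05, 2.8% as higher and 5.33% as lower. Among them are 2 members, Rplp0 as higher (0.0259) and Eif4g3 as lower (0.0473). With the authors' size factors in place of the TMM scaling, edgeR passed 41 ribosomal proteins and 12 factors, and 90.2% of all genes tested. The split over all genes was then 863 higher and 753 lower, against 465 higher and 751 lower with TMM.

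**Figure D1:**
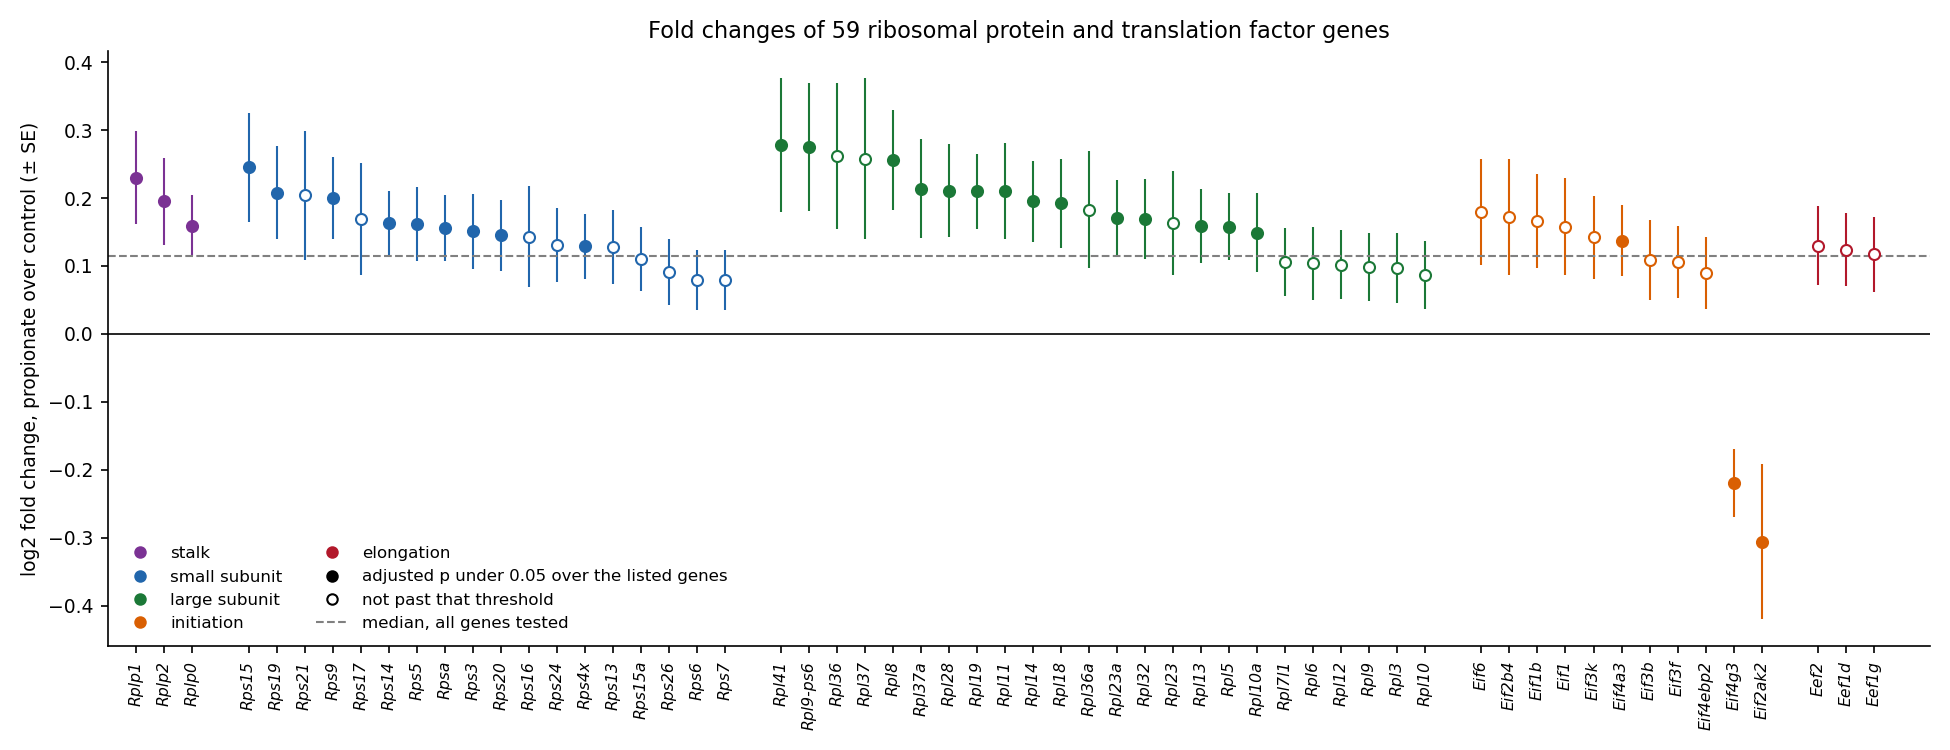
Each point is the log2 fold change of 1 gene, propionate over control, with its SE from edgeR on 4 libraries a group, ordered by role and size. Filled points passed an adjusted p of 0.05 over the genes tested, open points did not, and the dashed line is the median of all genes tested (0.11). It shows 59 of the 62 members; all 45 ribosomal proteins shown lie above 0, and the only members below 0 are Eif4g3 and Eif2ak2.

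All 3 stalk proteins passed, each with every propionate library above every control library. Of all genes tested, 67.9% passed, 25.9% as higher, and groups were separate in 47.4%, in 25.4% with propionate above. Rplp0, the base of the stalk to which the other stalk proteins bind, had 8597, 8894, 8730.0 and 9451 scaled counts (counts divided by the authors' size factor) in the propionate libraries, against 7622, 7616, 8000.4 and 7812 in the controls. The lowest propionate library, replicate 1, was above the highest control library, replicate 3. The means were 8918 ± 376 in the propionate group and 7762 ± 183 in the controls (SD, n = 4), and edgeR gave a log2 fold change of 0.16 ± 0.04 (SE, adjusted p = 0.0299). Here and below, scaled counts and the separation of groups rest on the authors' size factors, while edgeR fold changes rest on TMM scaling. With the size factors in edgeR, Rplp0 had 0.20, and the ribosomal proteins had a median of 0.205 in place of 0.163. Rplp0 was the 1 ribosomal protein with an adjusted p under 0.05 in the authors' deposited table, which gives all 48 as higher.

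Rplp1, one of the acidic proteins that form the flexible tip of the stalk, had 10514, 11059, 12653 and 13349 scaled counts with propionate and 9536, 9573, 9875 and 10395 in the controls. The groups did not overlap, though propionate replicate 1 came close to control replicate 4. The edgeR log2 fold change was 0.23 ± 0.07 (SE, adjusted p = 0.0312). Rplp2, its partner at the tip, had 4558, 4674, 5308 and 5442 scaled counts with propionate and 4077, 4007, 4343 and 4529 in the controls. Its groups were again separate by a narrow gap, and edgeR gave a log2 fold change of 0.20 ± 0.06 (SE, adjusted p = 0.0357). Per length, Rplp1 was the most abundant of the 48 ribosomal proteins, at 973 ± 106 FPKM with propionate and 807 ± 34.5 FPKM in the controls (SD, n = 4). That rank rests on its listed length of 499 bases.

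Of the 20 small subunit proteins 9 passed, and all 20 were higher (median log2 fold change 0.15, range 0.08 to 0.25). In 12 of the 20 the groups did not overlap, with propionate above. Over all genes tested, the groups were separate in this direction in 25.4% and in either direction in 47.4%, and 67.9% passed, 25.9% as higher. Rps14, a small subunit protein whose loss of 1 copy underlies the anaemia of the human 5q- syndrome, had 7450.1, 7784, 7729.7 and 8556 scaled counts with propionate and 6575, 6771, 6947 and 7069 in the controls. Its groups were separate, and edgeR gave a log2 fold change of 0.16 ± 0.05 (SE, adjusted p = 0.0312). Rps9, which lines the channel where mRNA enters, had 6754, 6873, 7641 and 8241 scaled counts with propionate and 6103, 6004, 6469 and 6381 in the controls. Here too every propionate library was above the controls (log2 fold change 0.20 ± 0.06, SE, edgeR adjusted p = 0.0312).

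Rpsa, a small subunit protein also known as a laminin receptor, had 9891, 10195, 10711 and 10916 scaled counts with propionate and 8947, 8786, 9627 and 9032 in the controls. The highest control library, replicate 3, stayed below the lowest propionate library, and the log2 fold change was 0.16 ± 0.05 (SE, edgeR adjusted p = 0.0346). Rps15, a protein of the small subunit head, had the largest log2 fold change of the small subunit at 0.25 ± 0.08 (SE, edgeR adjusted p = 0.0356). Its libraries held 7223, 7864, 8196 and 9636 scaled counts with propionate and 6124, 6654, 6695 and 7480.1 in the controls. Control replicate 4 was above the lowest propionate library, so these groups overlapped.

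Rps6, the substrate of the S6 kinases downstream of mTORC1, had one of the smallest differences. It had 7305, 7402, 7539 and 8017 scaled counts with propionate, against 6896, 7084, 7082 and 6777 in the controls. The groups were separate, yet the log2 fold change of 0.08 ± 0.04 (SE) did not pass (edgeR adjusted p = 0.105). Rps15a had the lowest FPKM of the small subunit proteins, 22.9 ± 1.33 with propionate and 20.7 ± 0.34 in the controls (SD, n = 4). Its listed length, 6270 bases, is the longest of the ribosomal proteins. Its scaled counts were 3328, 3351, 3616 and 3775 with propionate and 3112, 3191, 3188 and 3174 in the controls, separate but short of the threshold (log2 fold change 0.11 ± 0.05, SE, edgeR adjusted p = 0.0548).

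Of the 25 large subunit proteins 15 passed, and all 25 were higher (median log2 fold change 0.17, range 0.09 to 0.28). The groups were separate in 11 of the 25. Of all genes tested, 67.9% passed, 25.9% as higher. Groups were separate in 47.4% of them, and in 25.4% with propionate above. Rpl19, which takes part in a bridge to the small subunit, had 6387, 6429.8, 6583 and 7589.9 scaled counts with propionate and 5388, 5702, 5899 and 5679.6 in the controls. Propionate replicate 4 stood apart from the other 3, and all 4 were above the controls. The log2 fold change was 0.21 ± 0.05 (SE), and its edgeR adjusted p, 0.0275, was the lowest among the ribosomal proteins.

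Rpl8, which lies close to the centre where peptide bonds form, had 9246, 10057, 10047 and 12154 scaled counts with propionate and 7716, 8416, 8552 and 9053 in the controls. The groups were separate, and propionate replicate 4 was again the highest (log2 fold change 0.26 ± 0.07, SE, edgeR adjusted p = 0.0307). Rpl7l1, a paralog of Rpl7 that acts in assembly of the large subunit, had the lowest level per length of the 48, 20.1 ± 1.44 FPKM with propionate and 18.1 ± 0.49 FPKM in the controls (SD, n = 4). It had 1580.4, 1692, 1721 and 1876 scaled counts with propionate and 1497, 1574, 1588 and 1544 in the controls, with overlap by 1 control library, and did not pass (log2 fold change 0.11 ± 0.05, SE, edgeR adjusted p = 0.0692).

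Rpl5 and Rpl11, which join the 5S ribosomal RNA and can bind the p53 regulator MDM2, had log2 fold changes of 0.16 ± 0.05 and 0.21 ± 0.07 (SE). Both passed, at edgeR adjusted p-values of 0.0332 and 0.0372. Rpl41, the smallest protein of the ribosome, had the largest log2 fold change of the 48, 0.28 ± 0.10 (SE, edgeR adjusted p = 0.0391), with overlapping groups. Rpl10, which joins the large subunit late in its assembly, had the smallest of the large subunit, 0.09 ± 0.05 (SE), and did not pass (edgeR adjusted p = 0.11). Rpl9-ps6 carries a pseudogene name, is listed as protein-coding and had a log2 fold change of 0.28 ± 0.09 (SE, edgeR adjusted p = 0.0387). These 5 genes lie outside the rule for named genes and were chosen after their values were seen.

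**Figure D2:**
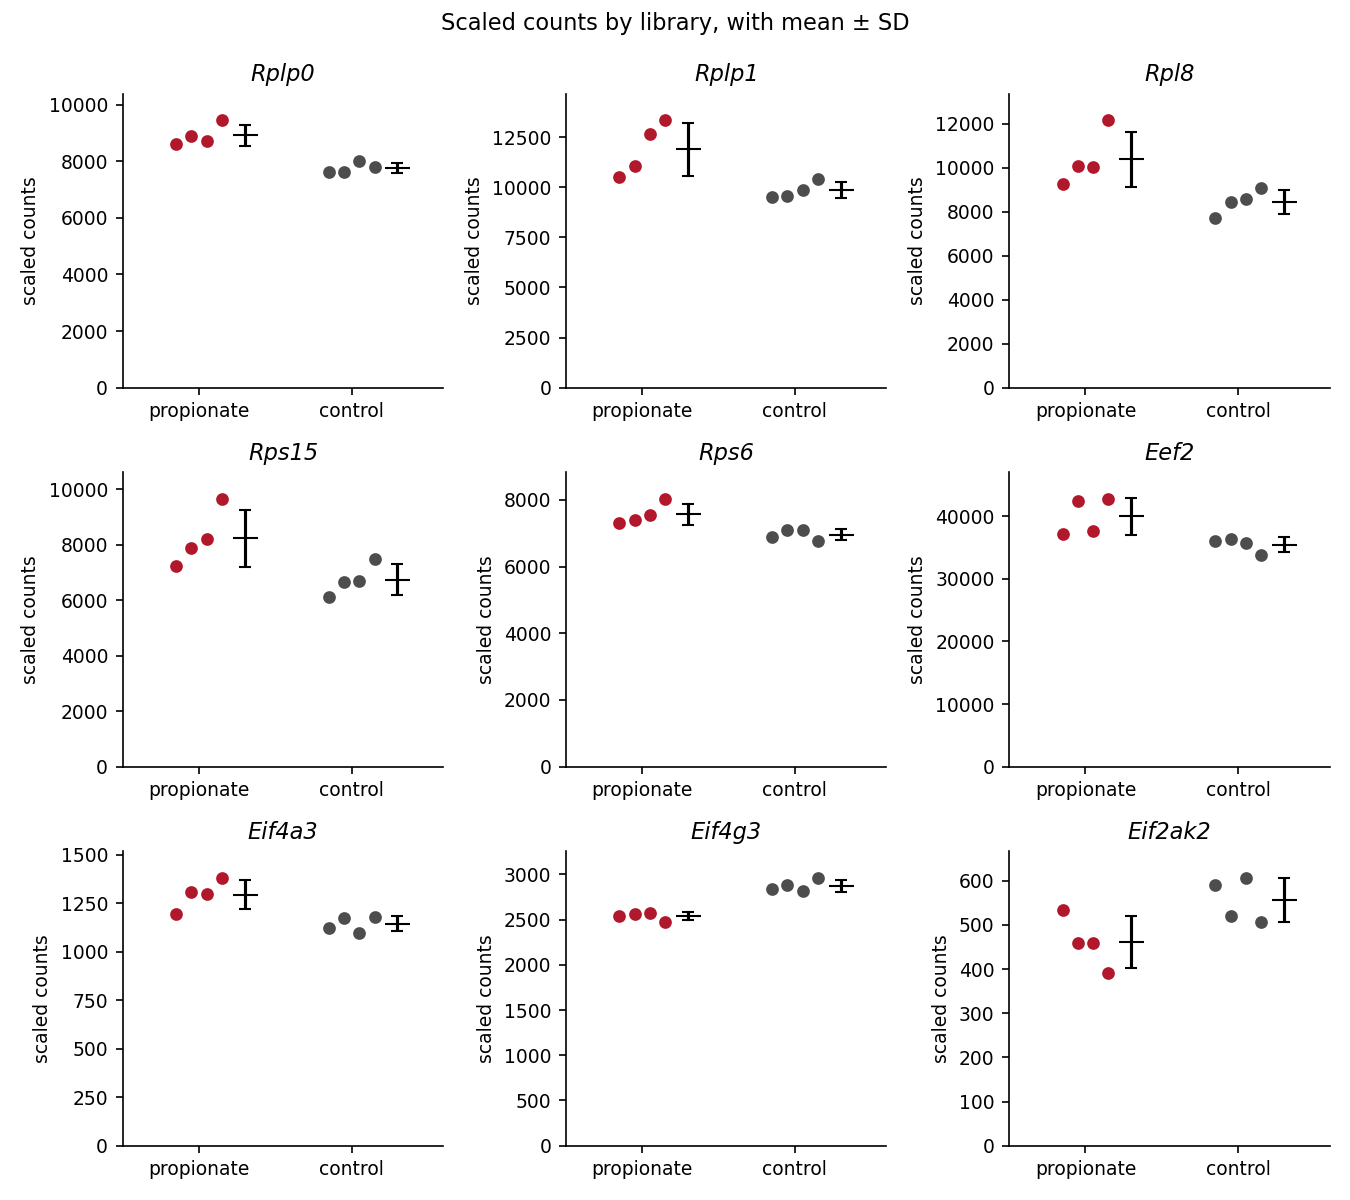
Points are scaled counts in single libraries of 9 members, propionate left and control right, with the mean and SD of 4 libraries beside them and axes from 0. Rplp0 had 8918 ± 376 with propionate and 7762 ± 183 in the controls, while Eif4g3 had 2537 ± 45 with propionate and 2874 ± 62.5 in the controls.

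Among the initiation factors, 2 of the 11 were lower with propionate, both passed, and both were the only members in that direction. Of all genes tested, 67.9% passed, 41.9% as lower. Eif4g3, a scaffold that links the cap-binding protein to the helicase eIF4A and to the small subunit, had 2535, 2561, 2576 and 2474 scaled counts with propionate. The controls had 2841, 2880.2, 2815 and 2958. The spread within each group was narrow and the groups were far from overlapping. The log2 fold change was -0.22 ± 0.05 (SE, edgeR adjusted p = 0.0212), and Eif4g3 fell in the authors' deposited table too. Its edgeR call held in each of the 8 fits that left out 1 library, with adjusted p-values of up to 0.0471, which was true of no other member. As the table gives it, Eif4g3 (ENSMUSG00000028760) lies on chromosome 4 from 137720333 to 137935819, in coordinates whose build the labels do not settle.

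Eif2ak2, the kinase PKR, is switched on by double-stranded RNA, is induced by interferon and blocks initiation by phosphorylating eIF2. It had 534, 459, 460.1 and 392 scaled counts with propionate, against 591, 519.9, 606 and 507 in the controls. The groups overlapped, since propionate replicate 1 was above control replicates 2 and 4. Its log2 fold change was -0.31 ± 0.11 (SE, edgeR adjusted p = 0.0425), and the call ended in 7 of the 8 fits that left out 1 library. For Eif2ak2 the authors' deposited table gives an adjusted p of 0.349.

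Eif4a3, a helicase of the exon junction complex rather than of the scanning ribosome, was the 1 factor that passed as higher. It had 1192, 1309, 1298 and 1379 scaled counts with propionate and 1124, 1172, 1099 and 1179.7 in the controls. The groups were narrowly separate, and the log2 fold change was 0.14 ± 0.05 (SE, edgeR adjusted p = 0.0442). The other 8 initiation factors had log2 fold changes of 0.09 to 0.18 and did not pass.

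Eif1, which guards the choice of start codon, had 5845, 5590.4, 6414 and 7389.6 scaled counts with propionate and 5153, 5512, 5624 and 5665 in the controls (log2 fold change 0.16 ± 0.07, SE, edgeR adjusted p = 0.063). Its close paralog Eif1b had 809, 836, 844 and 946 with propionate and 681, 733, 739 and 822 in the controls (0.17 ± 0.07, SE, edgeR adjusted p = 0.0522). In both, 1 library crossed into the range of the other group. Of the eIF3 complex, which holds the small subunit ready for mRNA, Eif3k had 2126, 2312, 2269 and 2486 scaled counts with propionate and 1802, 2061, 2133 and 2099 in the controls (0.14 ± 0.06, SE, edgeR adjusted p = 0.056). Eif3f had 3178, 3612, 3345 and 3806 with propionate and 3140.4, 3190.5, 3194 and 3060.3 in the controls (0.11 ± 0.05, SE, edgeR adjusted p = 0.0788). Eif3b had 3066, 2800.1, 3057 and 3340.5 with propionate and 2825, 2673, 2648 and 2907 in the controls (0.11 ± 0.06, SE, edgeR adjusted p = 0.0971). In each of these 3 subunits the groups overlapped.

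Eif6, which keeps the large subunit from joining too early, had 1097, 1097, 1173 and 1403 scaled counts with propionate and 925, 1023, 1120.5 and 1022 in the controls (log2 fold change 0.18 ± 0.08, SE, edgeR adjusted p = 0.0573). Eif2b4, a subunit of the exchange factor that reloads eIF2 with GTP, had 606, 651, 663 and 798 with propionate and 638, 593, 574 and 533 in the controls (0.17 ± 0.09, SE, edgeR adjusted p = 0.0748). Both had overlapping groups. Eif4ebp2, which in its unphosphorylated form holds the cap-binding protein back from the scaffold, had 5859, 6248, 5620.3 and 5894 with propionate and 5530.0, 5372, 5389 and 5289.6 in the controls. Its groups were separate, but the difference was small and did not pass (0.09 ± 0.05, SE, edgeR adjusted p = 0.119).

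The elongation factors were higher in all 3 listed members, with separate groups, and none passed. Groups were separate with propionate above in 25.4% of all genes tested, and 25.9% passed as higher. Eef2, the GTPase that moves the ribosome by 1 codon, was by far the most abundant factor, at 491 ± 40.5 FPKM with propionate and 436 ± 13.8 FPKM in the controls (SD, n = 4). Its scaled counts were 37185, 42335, 37540.4 and 42688 with propionate and 35980.3, 36347, 35711 and 33807 in the controls, so that 2 propionate libraries stood well above the other 2. The log2 fold change was 0.13 ± 0.06 (SE, edgeR adjusted p = 0.0597).

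Eef1d and Eef1g belong to the complex that reloads the tRNA carrier eEF1A with GTP. Eef1d had 2104, 2146, 2117 and 2469 scaled counts with propionate and 1900.2, 1955, 1954 and 2068 in the controls (log2 fold change 0.12 ± 0.05, SE, edgeR adjusted p = 0.0576). Eef1g had 4811, 4662, 4954 and 5658 with propionate and 4478, 4459, 4439 and 4615 in the controls (0.12 ± 0.05, SE, edgeR adjusted p = 0.0676). In both, propionate replicate 4 was the highest library.

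Levels per length differed far more between genes than between groups. FPKM divides by the listed gene length, which runs from 383 to 6270 bases in the ribosomal proteins. An order of genes by FPKM therefore rests on those lengths as well as on the counts. The ribosomal proteins had mean levels of 20.1 to 973 FPKM with propionate and 18.1 to 807 FPKM in the controls, with medians of 124 FPKM with propionate and 107 FPKM in the controls. The factors had 3.68 to 491 FPKM with propionate and 4.44 to 436 FPKM in the controls, with Eif2ak2 at the low end and Eef2 at the high end. Summed over the 48 ribosomal proteins, the libraries held 7276, 7759.8, 8089 and 9002 FPKM with propionate and 6468, 6800.4, 6789 and 7349 FPKM in the controls. The lowest propionate library was below the highest control library. In bulk tissue, more cells of a type and more RNA per cell cannot be told apart in such a sum.

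The members moved together from library to library. Propionate replicate 4 had the highest value of all 8 libraries in 46 of the 48 ribosomal proteins and in 11 of the 14 factors. Within the propionate group, replicate 1 was the lowest in 41 of the 48. Among the controls, replicate 4 was the highest in 32 and replicate 1 the lowest in 31. Such extremes were not counted for the other genes, so this order is not shown to be particular to the members. Over the genes tested, propionate replicate 4 also had the largest TMM factor, 1.0524, with the next at 1.0224 in propionate replicate 2. The median ribosomal protein, as log2 scaled count minus the gene's mean over 8 libraries, stood at -0.01, 0.05, 0.12 and 0.24 in the propionate libraries and at -0.16, -0.12, -0.09 and -0.04 in the controls. These medians did not overlap between groups. Their pooled SD within groups was 0.085, close to the 0.095 of the median single ribosomal protein, so that the median over 48 genes varied between libraries nearly as much as 1 gene does. The median factor stood at 0.00, 0.05, 0.07 and 0.20 with propionate and at -0.08, -0.08, -0.07 and -0.04 in the controls.

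**Figure D3:**
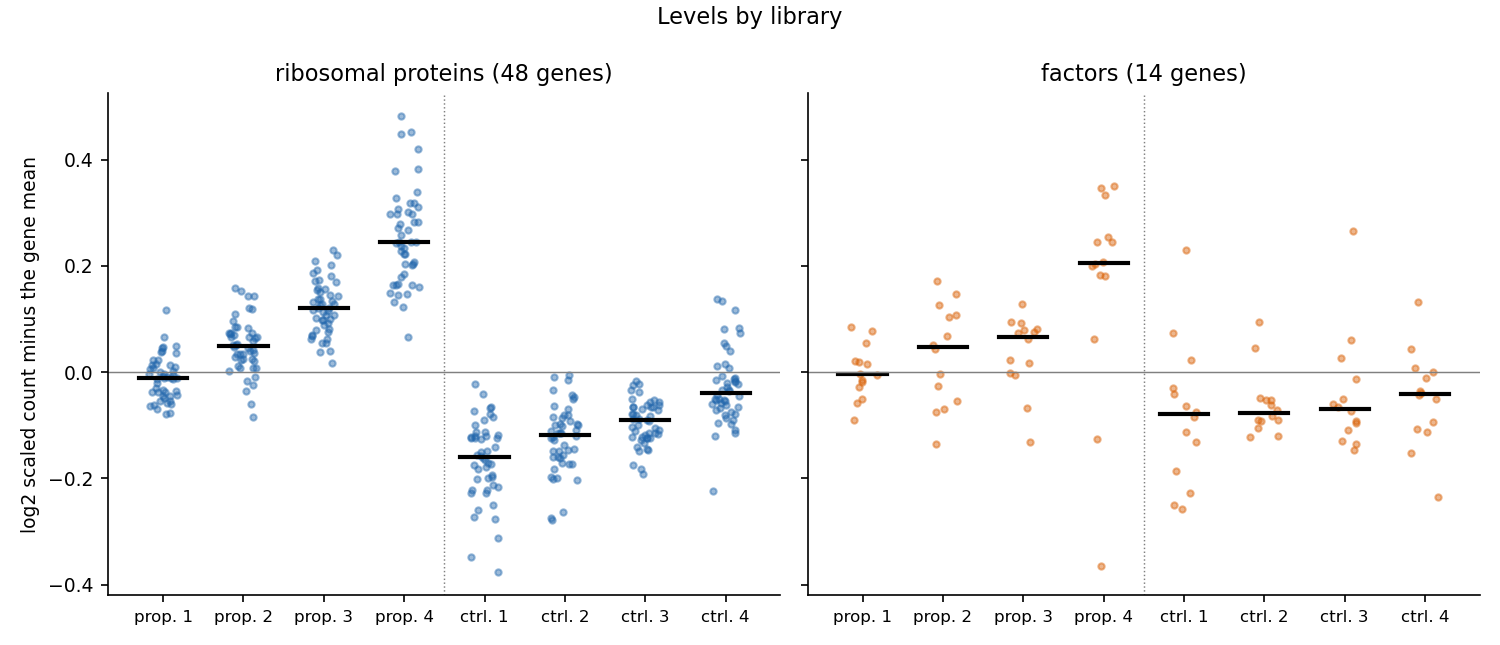
Each point is 1 gene in 1 library, as log2 scaled count minus the mean of that gene over 8 libraries, with the median as a black bar; propionate libraries are left and control libraries right of the dotted line. The ribosomal protein medians run from -0.01 to 0.24 in propionate libraries and from -0.16 to -0.04 in controls, and propionate replicate 4 is the highest.

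The calls depended on single libraries. Without propionate replicate 3 or without control replicate 3, 0 ribosomal proteins passed by edgeR. In those fits 10.6% of all genes tested passed without propionate replicate 3 and 7.0% without control replicate 3. At an unadjusted edgeR p under 0.05 stood 24 and 25 ribosomal proteins. The share of all genes at that unadjusted p was not counted in those fits. With all 8 libraries it was 81.6%, and 36.2% as higher. Without propionate replicate 4 the number of ribosomal proteins passing the adjusted p was 1 (11.7% of all genes). Without control replicate 2 it was 1 (18.6%) and without control replicate 1 it was 2 (30.7%). It was 34 without propionate replicate 1 (68.4%), 27 without propionate replicate 2 (58.6%) and 22 without control replicate 4 (29.6%). In all 8 of these fits all 48 ribosomal proteins were higher with propionate. The share of all genes tested that was higher stayed at 53.2% in each fit. Selection of the table on these libraries had thus largely set the direction beforehand.

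Gene length moved with the direction of change across the table. The genes tested were cut by length into 4 classes of 448. In the shortest class (59 to 2264 bases), 76.9% of the 416 genes that are no members were higher, with a median log2 fold change of 0.20, and the 29 ribosomal proteins of that class had a median of 0.17. In the next class (2269 to 3987 bases) the 428 other genes had a median of 0.15 and the 13 ribosomal proteins one of 0.15. In the third class (3988 to 6551 bases) the 439 other genes had a median of -0.22, while the 6 ribosomal proteins had one of 0.15. No ribosomal protein was in the longest class, where the other genes had a median of -0.28 and Eif4g3 lies at 11063 bases. Lengths are as the table gives them, up to 6270 bases for a ribosomal protein.

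When a trend of each library with gene length and GC content was removed, 39 of 48 ribosomal proteins were higher, where 44.4% of all genes tested were higher and 55.6% lower. Of the 48, 8 passed as higher and 2 as lower. Of the 1783 genes tested in that fit 24.5% passed, 9.81% as higher and 14.7% as lower. The median of all genes tested moved by this step to -0.03 from 0.11 on the log2 scale. Relative to these medians the ribosomal proteins stood 0.11 above all genes tested after the step and 0.05 before it, and the factors 0.02 after and 0.01 before. Such a distance does not show an excess in a table selected for a difference. The call of Rplp0 ended (log2 fold change 0.03, edgeR adjusted p = 0.641), as did that of Rpl19 (0.00, edgeR adjusted p = 0.979). Rps15 turned to -0.18 (edgeR adjusted p = 0.0444) and Rps6 to -0.20 (edgeR adjusted p = 0.0279). Rpl5 then had 0.35 (edgeR adjusted p = 0.00675) and Rps20, named after its values were seen, 0.38 (edgeR adjusted p = 0.00926). As listed, Rps15 has 630 bases and 62.4% GC, and Rps6 has 1586 bases and 58.9% GC. Rpl5 has 3920 bases and 42.7% GC, and Rps20 has 4080 bases and 41.3% GC. The step shifts each gene by its length and GC content, with a trend fitted only on genes selected for a difference. These single-gene values therefore depend on that fit. The call of Eif4g3 held at -0.16 (edgeR adjusted p = 0.032), and that of Eif2ak2 ended (-0.13, edgeR adjusted p = 0.315).

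**Figure D4:**
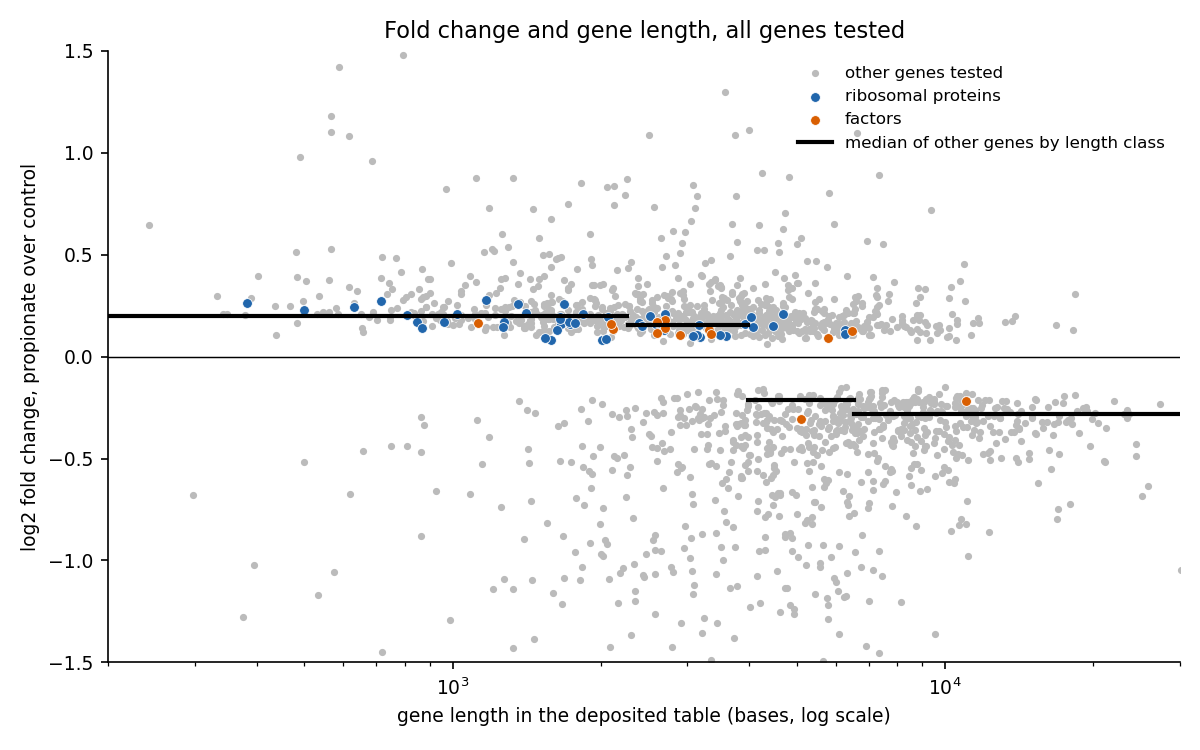
Each point is 1 gene tested, by its length in the deposited table (bases, log axis) and its log2 fold change, propionate over control; black bars are medians of the other genes in each length class (0.20, 0.15, -0.22 and -0.28). Ribosomal proteins lie in a narrow band above 0 at all their lengths, no gene lies close to 0 because the table was selected for a difference, and 41 genes fall outside the axes.

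Other genes of the same machinery gave the following counts, each read against 25.9% of genes tested passing as higher and 41.9% as lower. Counts with the trend of length and GC content removed have other shares beside them. In that fit 44.4% of genes tested were higher, and 9.81% passed as higher and 14.7% as lower. Of 4 symbols for ribosomal proteins with other names, 3 are listed and all were higher. Fau, which encodes a small subunit protein fused to a ubiquitin-like domain, had 7597 ± 876 scaled counts with propionate and 6239 ± 329 in the controls (SD, n = 4, log2 fold change 0.24 ± 0.07, SE, edgeR adjusted p = 0.0306). Rack1, a scaffold on the small subunit, had 9940.0 ± 706 with propionate and 8861 ± 180.2 in the controls (0.12 ± 0.05, SE, edgeR adjusted p = 0.049). Once the trend with length and GC content was taken out, Fau turned to -0.11 and Rack1 stood at 0.19 on the log2 scale. Ribosomal proteins have many processed pseudogenes, and 14 of these are listed. All 12 that were tested were higher and 7 passed, the smallest p being those of Rps10-ps2 (log2 fold change 0.27 ± 0.05, SE, edgeR adjusted p = 0.0158) and Rpsa-ps10 (0.24 ± 0.06, SE, edgeR adjusted p = 0.0281). With that trend removed 9 of the 12 were higher and 0 passed, and Rps10-ps2 stood at -0.03 and Rpsa-ps10 at -0.01. How the authors' counting placed reads that fit both a gene and its copies is not stated in the labels. Rpl14-ps1 had 5403 ± 333 scaled counts with propionate and 4540.2 ± 332 in the controls, while Rpl14 itself had 1810.2 ± 177 with propionate and 1535 ± 50.9 in the controls. Counts of members with such copies are therefore uncertain, and this pair was chosen after its values were seen.

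Of 144 symbols for ribosome biogenesis, 22 are listed, 21 of them higher, and 17 passed as higher and 1 as lower. Zfp622, whose yeast relatives act late in the maturation of the large subunit, had 896 ± 87.9 scaled counts with propionate and 664 ± 40.3 in the controls (SD, n = 4, log2 fold change 0.39 ± 0.08, SE, edgeR adjusted p = 0.0158). Polr1c, a subunit shared by RNA polymerases I and III, had 833 ± 87.0 with propionate and 681 ± 9.60 in the controls (0.25 ± 0.07, SE, edgeR adjusted p = 0.0286). Taf1d, of the factor that selects the promoter of ribosomal DNA, was the 1 lower member (-0.41 ± 0.13, SE, edgeR adjusted p = 0.0327) and was named after its values were seen. Once the trend with length and GC content was taken out, 19 of the 22 were higher and 6 passed, all as higher. Of all genes tested in that fit, 44.4% were higher and 9.81% passed as higher.

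Of the mTORC1 branch 3 of 31 symbols are listed, all higher, and 2 passed, the lysosomal scaffold subunit Lamtor4 (log2 fold change 0.24 ± 0.09, SE, edgeR adjusted p = 0.041) and the mTORC1 inhibitor Akt1s1 (0.17 ± 0.06, SE, edgeR adjusted p = 0.0418). With the trend removed 0 of these 3 were higher, where 44.4% of all genes tested were. Of the integrated stress response, which is set off by phosphorylated eIF2, 6 of 26 symbols are listed, all higher, and 3 passed. Pck2, the mitochondrial form of phosphoenolpyruvate carboxykinase, had a log2 fold change of 0.18 ± 0.06 (SE, edgeR adjusted p = 0.0361) and the transcription factor Ddit3 one of 0.33 ± 0.12 (SE, edgeR adjusted p = 0.0391). With the trend removed all 6 were higher and 2 passed as higher, where 9.81% of all genes tested did. Of 41 symbols for cytosolic tRNA synthetases only Farsa (0.21 ± 0.09, SE) and Kars (0.09 ± 0.06, SE) are listed, and neither passed. Of 25 symbols for termination, recycling and rescue, 3 are listed and 0 passed by edgeR, with 0 at an unadjusted p of 0.05, and Abcf3 (0.13 ± 0.06, SE) and Pabpc4 (0.11 ± 0.05, SE) had the smallest p. Of 10 symbols for other mRNAs with a pyrimidine tract, Hnrnpa1 is listed, and it was lower, with separate groups (-0.18 ± 0.06, SE, edgeR adjusted p = 0.0389).

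The libraries held 24608712 to 26711127 assigned reads with propionate and 20005328 to 26002214 in the controls, of which the listed genes made up 13.4% to 15.1%. The 48 ribosomal proteins took 1.23% ± 0.10 of the assigned reads with propionate and 1.06% ± 0.05 in the controls (SD, n = 4). Of 57 kidney and blood cell markers 11 are listed, 6 higher and 5 lower. Slc34a1, the phosphate carrier that marks the proximal tubule, had 79367 ± 5105 scaled counts with propionate and 70091 ± 5575 in the controls, as kidney tissue would have. Its log2 fold change of 0.14 ± 0.07 (SE) did not pass (edgeR adjusted p = 0.0811). Of the 11 proximal tubule markers 7 are listed, and 1 passed as higher and 4 as lower. The smallest p were those of Pck1, an enzyme of glucose synthesis, which was lower (-0.87 ± 0.12, SE, edgeR adjusted p = 0.00761), and the amino acid carrier Slc6a19, which was higher (0.55 ± 0.13, SE, edgeR adjusted p = 0.0212). Of 6 macrophage markers only Cd68 is listed (-0.74 ± 0.35, SE, edgeR adjusted p = 0.0711). The proximal tubule markers thus moved both ways, 3 higher and 4 lower. The 1 listed distal tubule marker was higher and passed, and the 2 listed collecting duct markers were higher and did not pass. The part of cell composition in the ribosomal protein difference was not tested.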

How the data were processed

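RNA-seq of 8 kidney libraries, 4 per group, was deposited as 1 table. The submitters' processing notes name DESeq2 and mm10; the aligner, the counter and strandedness are not given in the sources. Only 1 of the 62 members has the start and end of GENCODE M21 (GRCm38). The span given for Eif4g3 does not hold its GRCm38.p6 start window, so it is not a position on mm10 (GRCm38). Which build the coordinates follow is not stated in the sources. Per the file headers, the authors deposited raw read counts, scaled counts (a signal: counts divided by a size factor), FPKM, log2 fold changes and p-values with adjusted p-values. The deposited table holds the 1931 genes with an unadjusted p under 0.05.

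Totals per library were worked out from each gene's count, length and FPKM (20005328 to 26711127 reads). Counts were tested with edgeR 4.0.16 in R 4.3.3 (quasi-likelihood, TMM over the listed genes, filterByExpr, which left 1792 genes and all 62 members), with Benjamini-Hochberg adjustment over the genes tested and a threshold of 0.05. Because the table was selected on these libraries, that adjustment is too lenient. DESeq2 1.42.0 was an alternative. In data simulated for 1792 genes, edgeR recovered 7% of 100 genes changed by a log2 of 0.2 and 65% of 100 changed by 0.5. In the deposited table every gene had been selected for a difference, and recovery under such a selection was not tested. Values in every library are given for members past 0.05 in the authors' table, the 3 with the smallest p per role, those opposite to their role, all factors, the FPKM extremes, and a short list of regulators, leaving out 3 members that are counted but not reported singly here; each pathway list gives the 2 with the smallest p, and genes outside this rule are named as such or serve as a tissue check. Members and lists were chosen with earlier results of these data known. Promoter sequences are from RefSeq (GRCm38.p6).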

Additional observations from a re-analysis of the deposited data

Results flagged for a closer look

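Of the members, 59 were checked in each group for a library far from the other 3, which makes 118 groups of 4 libraries. A library was singled out when its gap to the nearest other library, as a share of the group's range, passed Dixon's limit for 4 samples, which chance passes in about 1 of 20 groups. This held for 6 groups. In the propionate group, replicate 4 was the highest for Rpl19 (share 0.837), Rpl14 (0.927), Eef1d (0.886) and Rps26 (0.836), and replicate 1 was the lowest for Rpl23a (0.887). In the controls, replicate 3 was the lowest for Rpl23a (0.951).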

How the results depend on the processing

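The table was selected on the libraries tested here, and 4 libraries a group limit small differences. Members past the threshold numbered 30 (27 ribosomal proteins and 3 factors) and came to 53 (41 and 12) with the authors' size factors, where 90.2% of all genes passed, and 61 (48 and 13) with DESeq2, where 96.3% did. They came to 12 (8 ribosomal proteins as higher) without the length and GC trend, where 24.5% of all genes passed, 2 (1 and 1) by the authors' deposited adjusted p, and 0 (0 and 0) both over 16064 genes and at an adjusted p of 0.01. Factors past it were 9 with library totals alone (83.7% of all genes) and 5 without the filter on low counts (73.5%). Leaving out 1 library gave 1 to 39 members, 0 to 34 ribosomal proteins and 1 to 5 factors, medians of 0.138 to 0.186 for ribosomal proteins and 0.102 to 0.142 for factors, and a ratio of summed ribosomal protein FPKM of 1.125 to 1.209, against 1.172 with all libraries.

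Deviations of same-numbered libraries from their group means had correlations of 0.245, 0.263, -0.097 and 0.219. Those of differently numbered libraries ranged from -0.302 to 0.377. The same-numbered values lie within that range, and the numbers were not taken as pairs in the main fit. With the replicate block, 37 ribosomal proteins and 7 factors passed, beside 71.0% of all genes, and with the block and the trend removed 13 members did, 9 of them ribosomal proteins as higher, beside 31.1% of all genes. The factor median turned to -0.007 with the trend removed and -0.006 with the block as well. So did the log2 fold changes, given first without and then with the block, of Rps14 (-0.015, -0.016), Rpl8 (-0.023, -0.022), Rplp1 (-0.088, -0.088), Rps15 (-0.184, -0.181), Rpl14 (-0.027, -0.028), Rpl37a (-0.062, -0.061), Eef2 (-0.048, -0.049), Eif4a3 (-0.002, -0.002), Rpl36 (-0.164, -0.158), Eif1b (-0.012, -0.01), Rps6 (-0.197, -0.198), Eif6 (-0.038, -0.037), Eif3b (-0.039, -0.04) and Eif2b4 (-0.024, -0.021). The cause was not tested.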
